A study of Mus musculus with 4 samples.

Results

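The Zbtb genes encode transcription factors that join a BTB domain at one end to C2H2 zinc fingers at the other. Every protein-coding gene in the count files whose mouse symbol is Zbtb, a number and at most 1 letter was taken, apart from Zbtb16, which gave 39 genes of 27179 identifiers. All 39 had at least 10 counts in 2 or more libraries and were tested, as were 16986 genes in all; the lowest count of a member in any library was 25. Lumbar spinal cord (segments L4-6) was taken from C57BL/6J mice, all male, and made into 4 libraries, 2 of them labelled cuff (a sciatic nerve cuff, which constricts the nerve and is used as a model of neuropathic pain) and 2 labelled sham (the control operation), 28 days after surgery by the series design. No transgene, mutant allele or drug is named in the labels for either group, and the sources used here give neither the age of the mice nor whether a library came from 1 animal or a pool. Messenger RNA was selected by its poly(A) tail and counted per gene; the totals were 36074864 and 32936609 counts for the cuff-labelled libraries, against 39461573 and 38823517 for the sham-labelled ones. For each of the 4 libraries, the title and the name of its file disagree on the condition. Groups follow the titles here, and every direction below would be the opposite under the file names. Replicates are separate samples by their titles, but no label says that they came from separate animals, so the p-values cover just the spread among these 4 libraries, which may be technical.

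In BTB zinc finger proteins the BTB domain pairs 2 protein chains and recruits corepressors such as the NCOR and BCOR proteins or the ubiquitin ligase scaffold CUL3, while the zinc fingers read DNA. Most family members studied so far act mainly as repressors, and many are known for setting cell fate, above all in blood and lymphoid cells, and some in neurons and glia. Zbtb4, Zbtb33 (Kaiso) and Zbtb38 form a small group whose zinc fingers can bind methylated CpG sites, so that they are counted among the readers of DNA methylation.

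The tissue label was checked against markers. Neuronal, oligodendrocyte, astrocyte and microglial markers were all detected, and so were all 5 Hox genes listed for lumbar cord. Summed over 5 skeletal muscle markers, the level was 137 and 492 CPM (counts scaled to a common library size) in the cuff-labelled libraries (replicates 1 and 2), against 89.2 and 62.6 CPM in the sham-labelled ones. It was 988 and 3016 CPM against 440 and 1056 CPM for 4 Schwann cell markers, and 197 and 419 CPM against 116 and 210 CPM for 5 leptomeningeal markers; none of these 14 genes was called at an adjusted p under 0.05, and none had an unadjusted p under 0.05 (edgeR). For 4 endothelial markers, all of which rose, the sums were 75.6 and 79.4 CPM against 38.1 and 45.8 CPM. For 3 astrocyte markers they were 3905 and 3188 CPM against 4712 and 4622 CPM, with 1 called lower (Aqp4, the astrocyte water channel). The second cuff-labelled library thus stood highest for muscle, Schwann cell and meningeal markers, and Scn10a, a sodium channel of sensory ganglia, had 0 counts in the other 3 libraries. It was also lowest for the Hox gene Hoxc8, at 10.2 CPM. Hoxc8 was at 42.0 CPM in the first cuff-labelled library and at 45.5 and 32.8 CPM in the sham-labelled ones. Hoxd10 went the other way and was highest in the second cuff-labelled library (70.8 CPM). The part of these cell types, or of the cord level sampled, in the results below was not tested. In bulk tissue, fewer cells of a type and less RNA per cell cannot be told apart.

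All 39 Zbtb genes were detected, most of them at low to moderate levels. Mean levels ran from 1.01 CPM to 188 CPM with a median of 13.6 CPM, against a median of 18.2 CPM over all genes tested; 9 members averaged under 5 CPM and 4 over 50 CPM. Because a long transcript collects more reads, levels were compared between genes only per kilobase of the longest annotated transcript. On that scale Zbtb4, one of the methyl-CpG binders, stood first at 24.1 ± 1.61 CPM per kb (SD over all 4 libraries). It was followed by Zbtb7a, a repressor of fetal globin genes in human red cell precursors, at 21.03 ± 1.16 CPM per kb, and by Zbtb18 (RP58), a repressor needed for the development of cortical neurons in mice, at 17.4 ± 3.62 CPM per kb. The ranges of Zbtb7a (20.4 to 22.8 CPM per kb) and of Zbtb4 (22.7 to 26.4) met at their edge, and so did those of Zbtb7a and Zbtb18 (12.7 to 20.4). Within each of the 4 libraries, Zbtb4 was above Zbtb7a and Zbtb7a above Zbtb18. The closest values were 20.4 for Zbtb7a and 20.1 for Zbtb18, in the first sham-labelled library. These differences were not tested. Zbtb11 (11.3 ± 2.22 CPM per kb), Zbtb7b (ThPOK, which commits mouse T cells to the helper lineage, 9.24 ± 0.445) and Zbtb22 (8.13 ± 1.15) came next, with overlapping ranges. The median member was at 2.74 CPM per kb. The lowest were Zbtb20 at 0.0721 ± 0.0582 and Zbtb37 at 0.116 ± 0.0622 CPM per kb, the members with the longest annotated transcripts (26901 and 18814 nt).

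**Figure D1:**
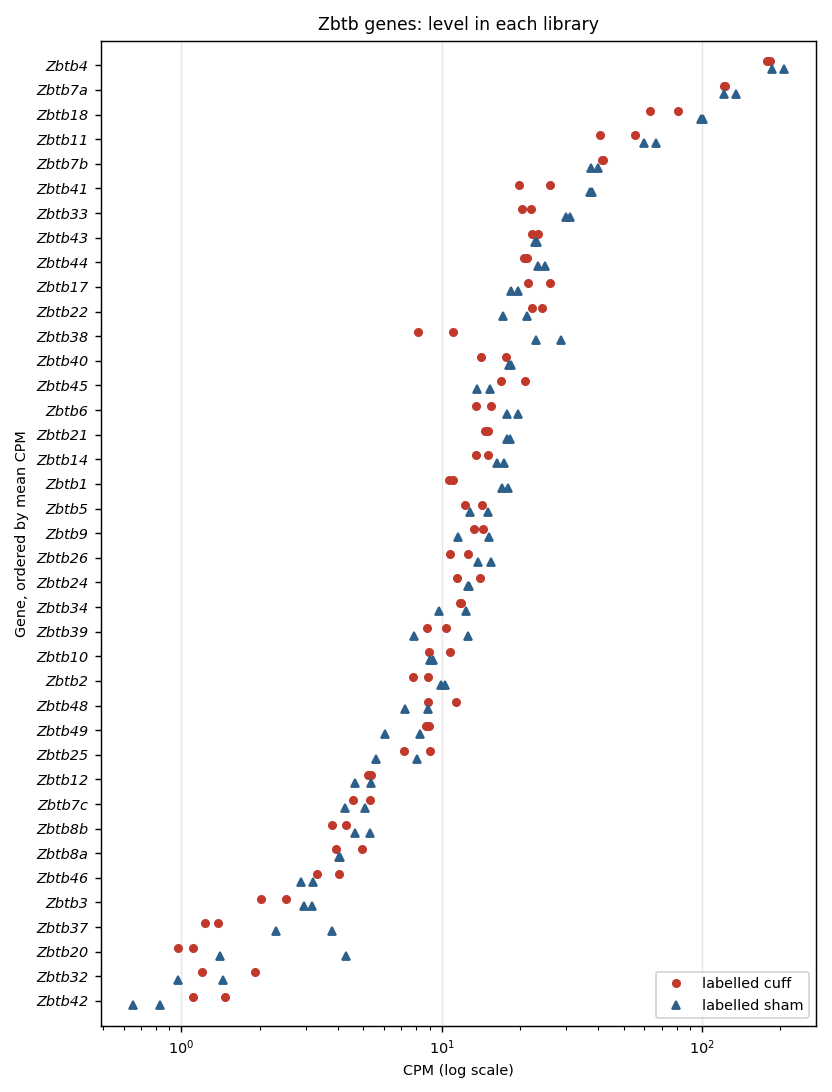
Level of each of the 39 Zbtb genes in CPM (log axis), ordered by mean CPM, with 1 point per library (circles, labelled cuff; triangles, labelled sham). Zbtb38 has the widest gap between groups among genes above 5 CPM, at 8.09 and 11.1 CPM in the cuff-labelled libraries against 23.1 and 28.8 CPM in the sham-labelled ones, while Zbtb7a and Zbtb43 show circles and triangles at nearly the same place.

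The family was mixed in direction, with 22 members below 0 on the log2 fold change scale (56.4%, against 47.8% of all genes) and 17 above. Summed over the 39 genes, the level was 857 and 833 CPM in the cuff-labelled libraries and 919 and 999 CPM in the sham-labelled ones, and Zbtb4, Zbtb7a and Zbtb18 made up between 44.1% and 44.3% of that sum in every library. The median log2 fold change (labelled cuff minus labelled sham) was -0.08 over the members and 0.02 over all genes tested, with quartiles of -0.35 and 0.12 for the members and -0.21 and 0.25 for all genes. The sign of the members' median changed without the second sham-labelled library, where it was 0.01; it was -0.20 without the first. The second sham-labelled library held the highest value of 18 of the 39 members and the lowest of 3. In log2 CPM relative to each member's own mean, the median member was at -0.05 and -0.04 in the cuff-labelled libraries and at -0.02 and 0.12 in the sham-labelled ones, so the first sham-labelled library lay nearer to both labelled cuff than to its own partner.

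Single genes fell. With edgeR's quasi-likelihood test and Benjamini-Hochberg adjustment over all genes, 4 of the 39 members passed an adjusted p of 0.05, all lower in the cuff-labelled libraries. These 4 are 10.3% of the members, against 4.06% of all genes called in either direction, 2.92% called lower and 1.14% called higher. They were Zbtb38, Zbtb41, Zbtb1 and Zbtb33. No member was called higher by edgeR, where 1 that was higher, Zbtb45, had an unadjusted p under 0.05, or by DESeq2, which called 5 members, all lower. Over all genes DESeq2 also called more than edgeR, 1082 of the 15010 with an adjusted p, 808 of them lower and 274 higher. The groups did not overlap in 25 members (64.1%, against 54.0% of all genes), with the cuff-labelled libraries below the sham-labelled ones in 18 (46.2%, against 25.9%) and above them in 7 (17.9%, against 28.1%). At an unadjusted p under 0.05 there were 10 members (25.6%, against 21.4% of all genes), a share near the background. No set test was run, and these shares are descriptions of a list that was proposed with results of these data known.

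**Figure D2:**
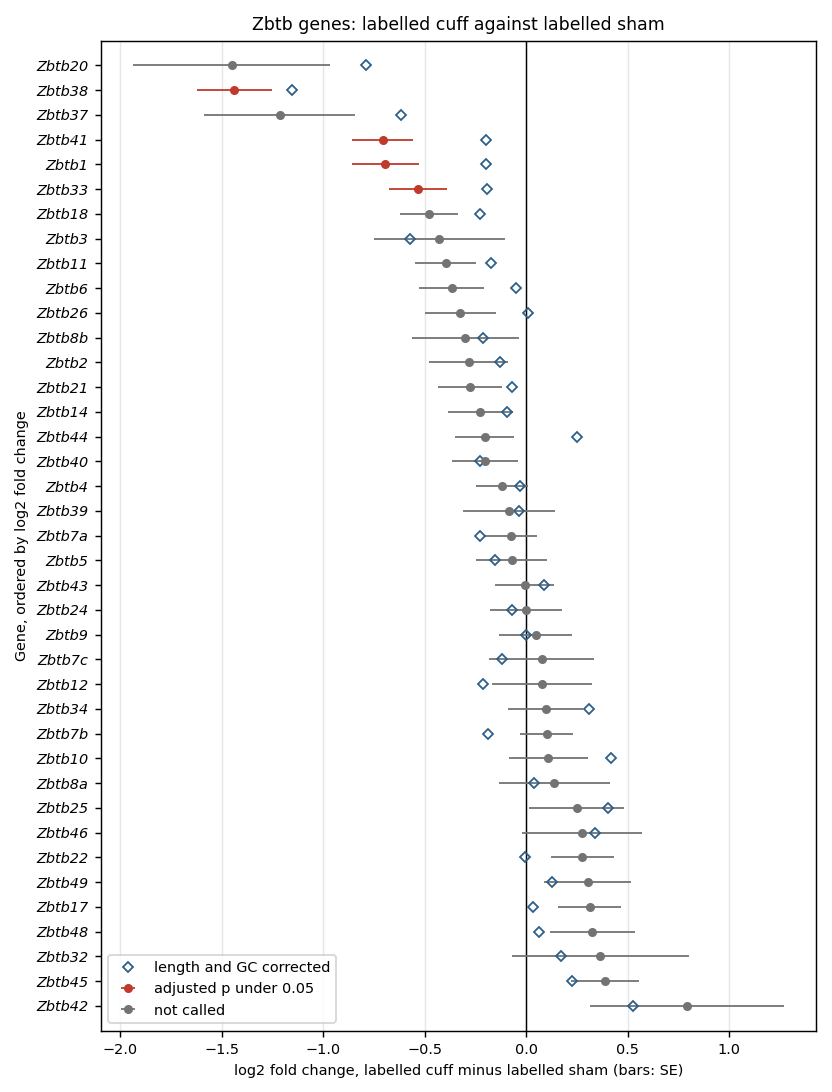
log2 fold change (labelled cuff minus labelled sham) of the 39 Zbtb genes with its standard error, for genes called at an adjusted p under 0.05 (red) and not called (grey), and the value after correction for transcript length and GC content (open diamonds). Zbtb38 lies at -1.44 and stays at -1.16 after correction, while the other 3 called genes lie between -0.71 and -0.53 uncorrected and at about -0.20 corrected.

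Zbtb38 (mm10 chromosome 9, 96682767 to 96731675) fell the most of the called members. It was at 11.1 and 8.09 CPM in the cuff-labelled libraries, from 399 and 276 counts, against 23.1 and 28.8 CPM in the sham-labelled ones, from 883 and 1112 counts. Both libraries labelled cuff were thus below both labelled sham, and the gap between groups was wider than the spread within either. The mean was 9.58 ± 2.11 CPM in the cuff-labelled libraries and 25.9 ± 4.04 CPM in the sham-labelled ones (SD, n = 2 each), or 0.369 times as high. The log2 fold change was -1.44 ± 0.18 (SE, adjusted p = 0.00125 by edgeR's quasi-likelihood test), the sixth smallest p of the 16986 genes. Zbtb38 was lower and passed the threshold in all 16 alternative fits, with log2 fold changes from -1.72 to -1.16 and adjusted p up to 0.0478, the value without the first sham-labelled library.

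The other 2 methyl-CpG binders had smaller fold changes. Zbtb33 (chromosome X, 38189793 to 38197046), which also binds the p120-catenin protein, fell to 21.99 and 20.3 CPM in the cuff-labelled libraries, against 30.1 and 31.1 CPM in the sham-labelled ones. The groups were apart and tight, and the log2 fold change was -0.53 ± 0.14 (adjusted p = 0.0439, edgeR). Exons of Zbtb33 share bases with Tmem255a on the opposite strand, which averaged 125 CPM in the cuff-labelled libraries and 171 CPM in the sham-labelled ones (log2 fold change -0.45, adjusted p = 0.0565). The libraries keep the strand, per the labels, but the sources used here do not say whether counting used it, so reads in the shared bases are uncertain. Zbtb4 (chromosome 11, 69765912 to 69784026), the most abundant of the group per kilobase, was at 178 and 183 CPM against 185 and 206 CPM and did not pass (-0.12 ± 0.13, adjusted p = 0.64). The difference between Zbtb38 and Zbtb4 in their fold changes was not tested. Summed over these 3 genes the level was 211 CPM in each cuff-labelled library and 238 and 266 CPM in the sham-labelled ones.

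Zbtb41 and Zbtb1 were the other called members. Zbtb41 (chromosome 1, 139422000 to 139453007) was at 25.96 and 19.9 CPM in the cuff-labelled libraries and at 37.2 and 37.7 CPM in the sham-labelled ones, a log2 fold change of -0.71 ± 0.15 (adjusted p = 0.0178, edgeR). Its 2 values labelled sham were close together and both above either value labelled cuff. Zbtb1 (chromosome 12, 76370051 to 76396955), which developing lymphocytes need in mice, was at 11.0 and 10.6 CPM against 17.0 and 17.9 CPM (-0.69 ± 0.17, adjusted p = 0.0297). Here both groups were tight. Zbtb25 lies beside Zbtb1, and the spans of this pair overlap at their starts, on opposite strands. Zbtb25 was at 7.16 and 9.05 CPM in the cuff-labelled libraries and 5.57 and 8.06 CPM in the sham-labelled ones, overlapping groups with a log2 fold change of 0.25 ± 0.23 (adjusted p = 0.576).

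The 3 calls other than Zbtb38 were close to the threshold and were lost under several alternatives. With limma-voom the adjusted p was 0.0587 for Zbtb41, 0.0672 for Zbtb1 and 0.080 for Zbtb33, and with an edgeR prior that was not robust it was 0.0514, 0.0554 and 0.0727 in the same order; the log2 fold changes were about the same. Without the second cuff-labelled library the log2 fold changes were -0.53, -0.67 and -0.48 (adjusted p = 0.319, 0.244 and 0.46). Without the first sham-labelled library they were -0.73, -0.75 and -0.57 (adjusted p = 0.169, 0.152 and 0.186), and without the second -0.70, -0.66 and -0.51 (adjusted p = 0.0901, 0.12 and 0.127). Without the first cuff-labelled library the log2 fold changes were -0.96, -0.76 and -0.64. So these genes stayed lower with any library left out. Their falls were larger with the second cuff-labelled library alone than with the first alone. With each library corrected for transcript length and GC content, Zbtb41 was at -0.20 ± 0.10 (adjusted p = 0.339), Zbtb1 at -0.20 ± 0.13 (0.494) and Zbtb33 at -0.19 ± 0.10 (0.366). Zbtb38 was at -1.16 ± 0.14 (adjusted p = 0.0217) in that fit. It was then the only called member, 1 of 39 (2.56%), against 0.378% of the 16415 genes fitted.

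**Figure D3:**
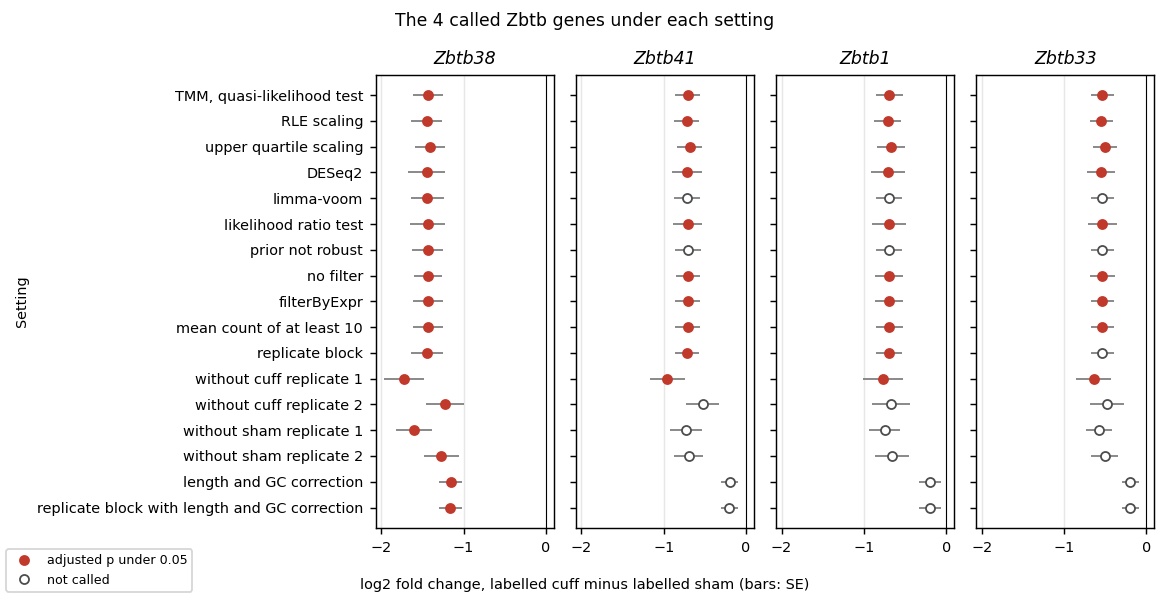
log2 fold change (labelled cuff minus labelled sham) with its standard error for Zbtb38, Zbtb41, Zbtb1 and Zbtb33 under the TMM-scaled quasi-likelihood fit and 16 alternatives, filled where the adjusted p was under 0.05. Zbtb38 is filled in every row, and the other 3 are open when the second cuff-labelled library or either sham-labelled library is left out, with limma-voom, with a prior that is not robust and with the length and GC correction, where they lie near -0.20. Zbtb33 is also open with the replicate block.

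The promoters of the 4 called genes are shown because these were the members called. Each window runs from 250 bases before to 50 after an annotated start (RefSeq, GRCm38.p6, 5′ to 3′ on the gene's strand), and capitals mark CpG, the dinucleotide that can carry methylation. They are chr9:96731626-96731925 and chr9:96719801-96720100 on the minus strand for Zbtb38, and chr1:139422133-139422432, chr12:76370270-76370569 and chrX:38189543-38189842 on the plus strand for Zbtb41, Zbtb1 and Zbtb33.
Zbtb38, 5′-most start: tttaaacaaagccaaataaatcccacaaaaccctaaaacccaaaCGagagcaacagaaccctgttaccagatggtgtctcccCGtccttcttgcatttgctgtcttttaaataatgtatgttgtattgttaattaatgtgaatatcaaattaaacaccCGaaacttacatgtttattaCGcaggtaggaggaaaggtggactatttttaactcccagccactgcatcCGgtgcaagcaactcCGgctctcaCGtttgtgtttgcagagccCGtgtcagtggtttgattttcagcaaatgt
Zbtb38, second start: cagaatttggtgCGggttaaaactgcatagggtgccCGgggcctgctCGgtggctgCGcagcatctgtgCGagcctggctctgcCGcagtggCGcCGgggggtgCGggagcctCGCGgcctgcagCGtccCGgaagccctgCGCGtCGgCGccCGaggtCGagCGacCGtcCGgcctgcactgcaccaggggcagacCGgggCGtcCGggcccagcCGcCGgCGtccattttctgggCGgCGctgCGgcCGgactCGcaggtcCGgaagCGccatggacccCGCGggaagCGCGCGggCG
Zbtb41: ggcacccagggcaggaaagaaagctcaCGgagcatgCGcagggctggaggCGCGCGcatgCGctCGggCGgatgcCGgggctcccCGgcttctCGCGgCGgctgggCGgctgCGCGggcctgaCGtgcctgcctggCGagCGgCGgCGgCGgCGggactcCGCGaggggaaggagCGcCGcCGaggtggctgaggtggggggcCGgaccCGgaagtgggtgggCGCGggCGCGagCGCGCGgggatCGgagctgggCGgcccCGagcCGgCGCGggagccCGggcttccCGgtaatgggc
Zbtb1: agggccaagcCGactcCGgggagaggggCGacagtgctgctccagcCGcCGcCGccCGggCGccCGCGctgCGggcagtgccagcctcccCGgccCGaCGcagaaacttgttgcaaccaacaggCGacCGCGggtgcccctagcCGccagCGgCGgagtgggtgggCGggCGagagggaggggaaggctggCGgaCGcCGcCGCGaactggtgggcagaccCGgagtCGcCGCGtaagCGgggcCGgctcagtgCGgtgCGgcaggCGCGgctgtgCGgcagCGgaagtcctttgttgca
Zbtb33: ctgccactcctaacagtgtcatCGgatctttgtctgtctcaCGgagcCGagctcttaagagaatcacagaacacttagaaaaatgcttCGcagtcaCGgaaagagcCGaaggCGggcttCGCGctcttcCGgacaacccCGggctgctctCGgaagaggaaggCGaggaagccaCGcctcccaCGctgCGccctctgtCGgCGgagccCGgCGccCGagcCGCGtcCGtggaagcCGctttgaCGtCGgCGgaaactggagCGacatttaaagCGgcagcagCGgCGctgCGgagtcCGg

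The 5′-most Zbtb38 window held 8 CpG and was 41.0% GC, while its second start held 41 CpG at 74.7% GC. Another Zbtb38 window close to this one, not printed, held 25 CpG. The windows of Zbtb41, Zbtb1 and Zbtb33 held 45, 39 and 34 CpG. Of the 39 members, 35 had an annotated promoter window. They are set here against all 27025 genes with such a window, whether or not these were detected in this tissue or code for protein. All 39 members were detected and code for protein, and the part of this difference in the shares below was not tested. The 5′-most window held at least 20 CpG in 24 of the 35 members, against 26.8% of all genes with a window. Its median was 26 CpG in the members and 7 in all genes with a window. A GC box (GGGCGG on either strand, a match that contains a CpG itself) was found in the 5′-most window of 24 of the 35 (68.6%, against 35.9% of all genes) and a TATA box (TATAAA, either strand) in 1 (2.86%, against 14.2%). The Kaiso site TCCTGCNA, the sequence that Zbtb33 binds without methylation, was in the 5′-most window of 1 member, Zbtb37 (2.86%, against 4.92%), and in 3 windows at other starts of Zbtb18. Those 3 windows overlap one another, so they need not hold 3 separate sites. These matches are descriptions of the windows, and no methylation or binding was measured here.

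Among members known for blood and lymphoid roles, 1 of 7 fell, namely Zbtb1, and none rose; the median log2 fold change was 0.25, against 0.02 over all genes, of which 2.92% were called lower. Blood and marrow markers summed to 16.6 and 30.9 CPM in the cuff-labelled libraries, against 8.52 and 11.9 CPM in the sham-labelled ones, and 2 of the 4 tested rose (Mpo, a neutrophil granule enzyme, and Ppbp, a platelet chemokine); their part in these values was not tested. Zbtb7a, the second most abundant member per kilobase, was at 121 and 122 CPM in the cuff-labelled libraries and at 121 and 135 CPM in the sham-labelled ones (-0.08 ± 0.13, adjusted p = 0.789, edgeR). Zbtb7b was at 41.5 and 41.3 CPM against 39.9 and 37.3 CPM (0.10 ± 0.13, adjusted p = 0.704). The groups overlapped in Zbtb7a, and in Zbtb7b both values labelled cuff were just above both labelled sham. Zbtb17 (Miz-1), a partner of the Myc protein at promoters that Myc represses, was at 21.4 and 26.1 CPM against 19.7 and 18.5 CPM (0.31 ± 0.16, adjusted p = 0.25). Its groups did not overlap, but its 2 values labelled cuff were about as far apart as the group means. Zbtb46, a marker of classical dendritic cells that endothelium also expresses, was at 4.02 and 3.31 CPM against 3.19 and 2.88 CPM (0.27 ± 0.30, adjusted p = 0.636). All 4 endothelial markers rose, and their part in this value was not tested. Zbtb32, which restrains cytokine genes in mouse T cells, was at 1.91 and 1.20 CPM against 0.967 and 1.45 CPM (0.37, adjusted p = 0.674).

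Of 3 members with roles in neural or glial development, none was called by edgeR, although all 3 had an unadjusted p under 0.05 (against 21.4% of all genes). DESeq2 called 1, Zbtb18, against 1082 of 15010 genes over all. Zbtb18 came nearest, at 80.9 and 62.9 CPM in the cuff-labelled libraries and 99.5 and 101 CPM in the sham-labelled ones (-0.48 ± 0.14, adjusted p = 0.0642, edgeR). Both of its values labelled cuff lay below the close pair labelled sham, and it passed in 4 of the 16 alternatives. The library with its lowest value, the second labelled cuff, also had the lowest sum of the 3 astrocyte markers (3188 CPM). It was lowest too for the summed spinal neuron markers (3259 CPM) and microglial markers (60.7 CPM). The oligodendrocyte sum was lowest in the second sham-labelled library instead (22308 CPM, against 24594 CPM in the second labelled cuff). The part of these cell types in the result for Zbtb18 was not tested. With the length and GC correction Zbtb18 was at -0.23 (adjusted p = 0.249). Zbtb20, which specifies hippocampal neurons and promotes astrocyte formation in mice, was at 1.11 and 0.967 CPM against 1.41 and 4.27 CPM (-1.45 ± 0.48, adjusted p = 0.107). That value was decided by the second sham-labelled library: without it the log2 fold change was -0.44. The counts for this gene were low (33 to 165 per library). Among fits with every library it passed only with no filter, and with the length and GC correction it was at -0.79. Zbtb45, a regulator of glial differentiation, was at 16.9 and 20.98 CPM against 13.6 and 15.3 CPM (0.39 ± 0.17, adjusted p = 0.188).

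The 4 members tied to DNA methylation maintenance, telomeres or genome stability ran from -0.20 to 0.33 on the log2 fold change scale. Over all genes the quartiles were -0.21 and 0.25. None of the 4 members was called by edgeR or DESeq2 or had an unadjusted p under 0.05. Zbtb24, whose loss in humans causes the ICF syndrome of low DNA methylation at centromeres, averaged 12.7 ± 1.80 CPM in the cuff-labelled libraries and 12.7 ± 0.0852 CPM in the sham-labelled ones (0.00, adjusted p = 1.00). Zbtb48 (TZAP), a telomere-binding protein in human cells, was at 8.85 and 11.3 CPM against 7.22 and 8.86 CPM, and Zbtb10, which binds variant telomere repeats in human cells, at 8.90 and 10.8 CPM against 9.02 and 9.22 CPM. In both genes the groups overlapped.

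Other members without a call are given by their values. Zbtb11, the fourth most abundant per length, was at 55.3 and 40.6 CPM in the cuff-labelled libraries and 59.8 and 66.3 CPM in the sham-labelled ones (-0.39 ± 0.15, adjusted p = 0.14, edgeR); it passed only without the first cuff-labelled library. Zbtb37 was at 1.39 and 1.23 CPM against 2.30 and 3.78 CPM (-1.21 ± 0.37, adjusted p = 0.0721). Its groups did not overlap, at only 42 to 146 counts per library. Among fits with every library it passed only with no filter, and with the length and GC correction it was at -0.62. Zbtb42 had the highest log2 fold change of the 39, 0.79 ± 0.48 (adjusted p = 0.355), from 40 and 50 counts against 25 and 32. Zbtb22 was at 22.3 and 24.3 CPM against 17.2 and 21.2 CPM (0.28 ± 0.16, adjusted p = 0.325). The neighbours Zbtb6 and Zbtb26 on chromosome 2 were at -0.37 and -0.32 (adjusted p = 0.198 and 0.296). They share exon bases on the same strand in GENCODE M21, but their RefSeq spans (37425500 to 37430919 and 37432168 to 37443172) do not overlap. The annotation used for counting was not given, so whether their counts share reads is not known. In all, 17 of the 39 members have exons that another gene overlaps on either strand in GENCODE M21. Zbtb43 was at 22.3 and 23.4 CPM against 22.7 and 23.2 CPM, with all 4 values close together. The remaining 15 members ran from -0.43 (Zbtb3) to 0.30 (Zbtb49) on the log2 fold change scale, with adjusted p from 0.324 to 0.916 (edgeR).

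The fold changes of the family varied with transcript composition, as they did over all genes. The longest annotated transcript (GENCODE M21) was 4944 nt in the median member, against 3276 nt in all genes tested, and its GC content was 49.8% in both. Of 20 members with a GC content below that of the median gene, 16 had a negative log2 fold change and 4 were called lower, and their median was -0.31. Over all 8207 genes below it, 69.3% were negative, 5.43% were called lower and the median was -0.14. Of these 20 members, 19 were also longer than the median gene, with 84.2% negative, 21.1% called lower and a median of -0.32. Over all 4813 genes both below it in GC content and longer, 78.5% were negative, 8.56% were called lower and the median was -0.21. Of the 19 members at or above the median gene in GC content, 6 were negative and none was called. Their median was 0.08, against 0.16 over all such genes. Across the 39 members the log2 fold change correlated with GC content at Pearson r = 0.62 (Spearman rho = 0.69) and with log2 transcript length at r = -0.70 (rho = -0.62); across 16415 genes these were 0.35 (0.49) and -0.24 (-0.31). Genes share libraries and are not independent replicates, so these are descriptions without a p. After the length and GC correction the 39 members gave r = 0.15 with GC content and -0.38 with length. Of the 22 members with a negative log2 fold change, 16 came closer to 0, and the distance between the members' quartiles narrowed to 0.27, against 0.47 uncorrected. Zbtb38, with 7406 nt and 45.5% GC, was at -1.44, where the bin of all genes (1 of 10 by GC content) with a median GC content of 45.0% had a median of -0.14. By length, Zbtb38 lies between the bins with median lengths of 5766 and 8234 nt, whose median log2 fold changes were -0.12 and -0.27.

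**Figure D4:**
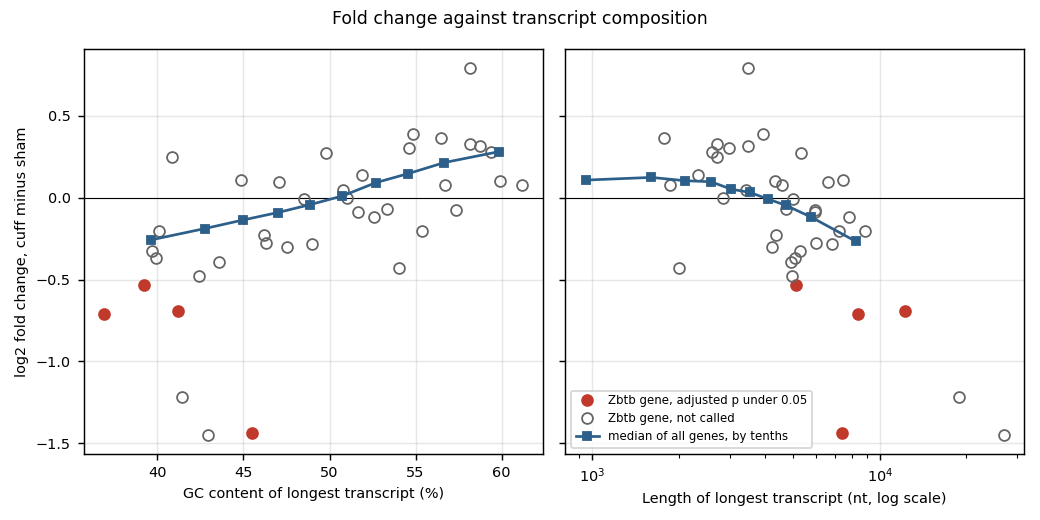
log2 fold change (labelled cuff minus labelled sham) of the 39 Zbtb genes against the GC content in percent (left) and the length in nt (right, log axis) of the longest annotated transcript, with the median of all genes in 10 bins of equal size (squares). The median of all genes is -0.26 in the bin with the lowest GC content and 0.28 in that with the highest, and Zbtb38 lies at -1.44 with 45.5% GC.

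The called genes were compared by gene structure. The coding sequence of Zbtb38, Zbtb1 and Zbtb33 lies in 1 exon, as in 14 of the 39 members, while that of Zbtb41 is spread over 10. They lie on chromosomes 9, 12, X and 1, and the 39 genes are spread over 15 chromosomes. The noncoding part of their longest coding transcript ran from 3109 nt in Zbtb33 to 10051 nt in Zbtb1, against a median of 2728 nt over the members. Long noncoding parts were also found in members without a call, such as Zbtb44 (7502 nt) and Zbtb20 (24678 nt).

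Genes that work with the family were read from lists. Of 8 BTB zinc finger genes without a Zbtb symbol, none was called (median log2 fold change -0.20). Mynn (myoneurin) was at 14.9 and 14.4 CPM in the cuff-labelled libraries and 20.4 and 20.3 CPM in the sham-labelled ones (-0.48 ± 0.15, adjusted p = 0.0858, edgeR), and Bcl6, a repressor that directs germinal centre B cells, at 20.5 and 18.7 CPM against 25.7 and 27.5 CPM (-0.44 ± 0.15, adjusted p = 0.0951). Of 13 corepressor and ligase genes, none was called (median -0.01); the one nearest was Tbl1x, a subunit of the NCOR complex (-0.81 ± 0.23, adjusted p = 0.0882), while Ncor1 was at -0.35 (adjusted p = 0.156). None of 5 genes of the methyl-CpG binding domain family, the other readers of DNA methylation, was called (median -0.04), and Mbd3 was at 0.24 (adjusted p = 0.308). Of these 26 genes, 4 (Bcl6, Mynn, Ncor1 and Tbl1x) had an unadjusted p under 0.05 in edgeR, against 21.4% of all genes. DESeq2 called 1, Tbl1x, against 1082 of 15010 genes over all.

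Of 8 partners or targets of single Zbtb proteins, 1 fell, where 2.92% of all genes were called lower, and the median log2 fold change was -0.01. Usp9x, a deubiquitinating enzyme reported to stabilise ZBTB38 in human cells, was at 108 and 71.7 CPM in the cuff-labelled libraries and 175 and 223 CPM in the sham-labelled ones (-1.14 ± 0.21, adjusted p = 0.0275, edgeR). Its groups were far apart, but its transcript is long (11887 nt) and 40.0% GC, and with the length and GC correction it was at -0.63 (adjusted p = 0.0722). Without the first sham-labelled library it was at -1.32 (adjusted p = 0.153) and without the second at -0.96 (adjusted p = 0.183). Hells (-0.49), Cdca7 (0.29), Ctnnd1 (-0.04) and Max (-0.04) were not called. Rbbp6, Mcm10 and Myc, also not called, are given in more detail after their values were seen. Rbbp6, the ubiquitin ligase that marks ZBTB38 for degradation in human cells, was at 99.4 and 94.6 CPM against 88.5 and 104 CPM (0.01, adjusted p = 0.973); with the length and GC correction it was at 0.48 (adjusted p = 0.0761). Mcm10, a replication gene that ZBTB38 represses in human cells, was at 2.36 and 2.52 CPM against 1.36 and 1.30 CPM (0.88 ± 0.37, adjusted p = 0.177); both of its values labelled cuff were above both labelled sham. Myc, the partner of Zbtb17, was at 3.36 and 4.57 CPM against 2.48 and 2.20 CPM (0.76 ± 0.31, adjusted p = 0.166).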

How the data were processed

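Strand-specific poly(A) RNA-seq libraries of mouse lumbar spinal cord, 2 labelled cuff and 2 labelled sham, were used. The values are counts of reads per Entrez gene, not normalized, as deposited by the authors. Trimmomatic 0.30, HISAT2 2.0.1 and featureCounts with build mm10 are named in the submitters' processing notes; the annotation and strand setting were not given in the sources used here. In 1 deposited file the identifier and count were joined by a literal backslash and t, so its values carry the unit other in the authors' layout and were split there into counts.

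Of 27179 identifiers, 25275 were matched in a RefSeq table (GRCm38.p6), 18 through GENCODE M21, and 1886 stayed unmatched. Genes with at least 10 counts in 2 libraries were tested. Totals of 32936609 to 39461573 counts per library set the counting error; differences between any pair of libraries exceeded it (chi-square per degree of freedom 24.1 to 71.9), so no library was a copy. edgeR 4.0.16 (R 4.3.3) gave TMM-scaled CPM, robust quasi-likelihood tests and Benjamini-Hochberg adjusted p-values over all genes, called under 0.05. SE is the absolute fitted log2 fold change divided by the square root of F. An exact permutation test over libraries has only 3 splits and cannot reach 0.05. The fit was tested on simulated data.

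Alternatives were other scalings, DESeq2 1.42.0, limma-voom (limma 3.58.1), a likelihood ratio test, other priors and filters, a replicate block, leaving out each library, and per-library offsets that remove the trend with transcript length and GC content. Members given with every library's value were Zbtb38, those called, the methyl-CpG binders, the 6 of highest mean CPM and the 4 of smallest p in each direction; in related lists, those called or up to 2 of smallest p. One gene that this rule names is not reported here. Other genes with values were chosen after these were seen. The members and lists were chosen with earlier results of these data known.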

Additional observations from a re-analysis of the deposited data

How the results depend on the processing

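Zbtb38 kept its direction and its side of the threshold in all 16 alternatives. The number of Zbtb genes called, 4, was 1 with limma-voom, 1 with a prior that was not robust, 1 with the length and GC correction with or without the replicate block, and 7 with no filter; leaving out 1 library gave 1 to 8. The number of all genes called, 690, was 1082 with DESeq2, 147 with limma-voom, 1041 with the likelihood ratio test, 238 with a prior that was not robust, 1292 with no filter, 62 with the length and GC correction and 453 with that correction and the replicate block; leaving out 1 library gave 28 (without the first labelled sham) to 1856 (without the first labelled cuff). The replicate block alone gave 3 Zbtb genes, with Zbtb33 at an adjusted p of 0.0624 (edgeR), and 590 genes in all; Usp9x was lost with it (adjusted p 0.0534). With the block and the length and GC correction together, Rbbp6 (0.48, adjusted p 0.0176) and Tbl1xr1 (0.39, adjusted p 0.0397) were called higher. No label says that equal numbers pair libraries, and the correlation of same-numbered deviations was 0.111 over only 2 pairs. The median log2 fold change of the Zbtb genes, -0.08, ranged from -0.20 to 0.0062 when 1 library was left out. Of the 39 members, 17 changed sign in at least 1 alternative, none of them called. Among those named by rule they were Zbtb22 (-0.0055 with the correction and -0.00068 with the block added), Zbtb7b (-0.19 in both) and Zbtb7a (-0.08, with a range of -0.17 to 0.0071 when 1 library was left out, the last without the second labelled sham). The cause was not tested for any of these. With 1 library left in a group, that library is assumed to vary like the others. With 2 libraries a group, low members such as Zbtb42 and Zbtb32, at 25 to 69 counts, have wide errors.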
